A study of Homo sapiens with 5 samples.

Results

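The genes described here encode the eukaryotic translation initiation factors (eIFs). They are the rows of the count table whose symbol starts with EIF1 to EIF6, without the eIF2 kinases (EIF2AK genes) and the eIF4E-binding proteins (EIF4EBP genes). The rule picked 52 of 25343 gene rows. Of these, 48 are protein-coding genes, 3 are antisense RNAs and 1 is a processed pseudogene (EIF3IP1). Counts were high enough for a test in 44 of the 52, of which 43 are protein-coding.

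RNA-seq was done on SW620 cells, an established human line from a colon carcinoma, in 5 libraries. All 5 carried the same construct, tet-MUC1shRNA, which places a short hairpin RNA against the mucin gene MUC1 under a tetracycline-responsive switch. By title, 3 are neg (numbered 1, 2 and 3) and 2 are pos (numbered 1 and 3). Per the labels, cells were given doxycycline or only its vehicle, but which name stands for which treatment is not written there. No library with doxycycline and another hairpin was analysed here, and the labels do not say whether the line is a single clone. They speak of triplicate cultures, without tying each library to a culture, so p-values measure the spread between these libraries, which may be technical.

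In each round of protein synthesis, eIF2 carries the initiator tRNA to the small ribosomal subunit and is reloaded with GTP by its exchange factor eIF2B. The large complex eIF3 holds the small subunit open for mRNA, and the eIF4 factors recognise the 5′ cap, unwind the leader and bridge the mRNA to eIF3. Release of eIF2 and joining of the large subunit are driven by eIF5 and eIF5B. Many mRNAs for the translation machinery begin with a C followed by an unbroken run of C and T bases (a 5′ terminal oligopyrimidine start, or TOP), through which mTOR and LARP1 control their translation.

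MUC1, the target of the hairpin, had 176, 252 and 218 reads in the 3 neg libraries and 27 and 13 in the 2 pos libraries (log2 fold change -3.07, SE 0.34, edgeR adjusted p = 0.0270). Below, values of neg stand in the order of replicates 1, 2 and 3, and values of pos in the order of replicates 1 and 3. Of 12 colonic epithelial markers 7 had at least 10 reads in every library, among them EPCAM, KRT8 and CDX2. The summed level of the 12 was 6069 to 7894 CPM (read counts scaled to library depth) in neg and 7910 to 16432 CPM in pos. Of 6 fibroblast markers, COL1A1, LUM and PDGFRB had at least 10 reads in every library, and COL1A2 and COL3A1 had 0. The 6 summed to 25.2 to 29.1 CPM in neg and 13.5 to 18.7 CPM in pos. The 4 endothelial markers summed to 2.73 to 4.02 CPM in neg and 0.890 to 1.48 CPM in pos. The leukocyte gene LYZ had 5.17, 5.91 and 4.90 CPM in neg and 11.7 and 14.02 CPM in pos, CD14 and ITGAM had at most 20 and 2 reads in a library, and PTPRC and CD3E had 0 reads. The part of these markers in the results was not tested. Library totals ran from 10888704 to 14137678 reads. The pos libraries differed from each other (Pearson r of log2 CPM 0.912 across genes, which are not replicates) more than neg libraries did (0.983 to 0.993). They also differed from neg by transcript length. Genes were put in 5 bins of transcript length. In the bin up to 1742 nt, pos replicates 1 and 3 stood at a median of 0.37 and 1.19 above the mean of neg on the log2 scale, and in the bin from 5696 nt they stood at -0.26 and -1.25. Results were also computed with each library's length trend removed. The part of the trend in them was not tested further.

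Annotated start sites were used to class members by a TOP-like start, the sequence feature best known for translation-machinery mRNAs. A start was called TOP-like where the first transcribed base was C and at least 5 bases in a row from it were C or T, read on the strand of the gene. Among the 43 members with a RefSeq start window (GRCh38.p14) at hand, 9 had one, or 20.9%, against 5.14% of 27305 genes. The class rests on the exact annotated base, and the starts used in these cells were not measured. By the same rule the elongation factor gene EEF1B2 had runs of 0 and 16 bases at different annotated starts, and EEF1G had 0. A member without a run is therefore not shown to lack a TOP start. The windows below hold 30 bases before the annotated start and 20 from it, with the pyrimidine run in capitals. EIF3I and EIF4E are shown as members without such a run at the annotated start.
EIF3K, chr19:38619158-38619207, plus strand: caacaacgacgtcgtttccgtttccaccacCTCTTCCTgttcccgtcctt
EIF3F, chr11:7987307-7987356, plus strand: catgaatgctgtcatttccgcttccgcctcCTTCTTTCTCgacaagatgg
EIF3D, chr22:36529147-36529196, minus strand: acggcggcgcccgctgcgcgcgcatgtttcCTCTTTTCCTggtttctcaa
EIF3M, chr11:32583801-32583850, plus strand: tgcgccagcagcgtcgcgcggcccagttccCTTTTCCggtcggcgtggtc
EIF2D, chr1:206612446-206612495, minus strand: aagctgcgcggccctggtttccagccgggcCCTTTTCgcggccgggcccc
EIF2A, chr3:150546757-150546806, plus strand: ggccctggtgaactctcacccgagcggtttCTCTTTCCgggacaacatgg
EIF2S3, chrX:24054926-24054975, plus strand: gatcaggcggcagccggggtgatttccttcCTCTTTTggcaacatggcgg
EIF4A2, chr3:186783547-186783596, plus strand: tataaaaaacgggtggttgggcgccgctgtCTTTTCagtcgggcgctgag
EIF4B, chr12:53006426-53006475, plus strand: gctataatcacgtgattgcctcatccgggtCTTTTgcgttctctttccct
EIF3I, chr1:32222377-32222426, plus strand: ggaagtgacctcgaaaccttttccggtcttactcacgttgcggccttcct
EIF4E, chr4:98929114-98929163, minus strand: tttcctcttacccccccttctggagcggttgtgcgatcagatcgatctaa

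Between pos and neg, 1 member passed the test: EIF4E3, a cap-binding relative of eIF4E, and it was lower in pos. That is 1 of 44 tested members, or 2.27%, at a threshold of 0.05 (quasi-likelihood test of edgeR, p-values adjusted by Benjamini-Hochberg over all 13604 tested genes), against 9.20% of all tested genes in either direction and 4.13% lower in pos. An unadjusted p under 0.05 was found for 16 members, or 36.4%, against 34.6% of all tested genes. The pos libraries lay outside the range of the neg libraries for 26 members, or 59.1%, against 56.0% of all tested genes. The last pair of shares lay close to those of all tested genes, and the first lay below its background. DESeq2 called 11 members, or 25%, against 23.2% of all tested genes, with 9 higher and 2 lower. With each library's length trend removed edgeR called 6 members, or 13.6%, against 13.9%. When neg replicate 1, 2 or 3 was left out, edgeR called 0 members and 0 of all genes, with 11, 6 and 7 members at an unadjusted p under 0.05. Of fits with a single pos library, which assume that it varies like neg, the one without pos replicate 1 called 32 members, or 72.7%, against 63.1% of all genes tested in it. The one without pos replicate 3 called 10, or 22.7%, against 31.3%. EIF4E3 passed in both.

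The factor groups, of which eIF4 is not a single complex, differed in their medians. The median log2 fold change (pos against neg) was -0.16 for the 3 subunits of eIF2, 0.71 for the 5 of eIF2B, 0.55 for the 12 tested of eIF3 and -0.27 for the 11 tested of eIF4, against -0.05 over all tested genes. With the length trend removed these medians were -0.02, 0.29, 0.30 and -0.22, against 0.02 over all tested genes. Taken against the mean of neg, pos replicate 1 alone had medians of -0.13, 0.31, 0.35 and 0.10 in the same order, and pos replicate 3 had -0.20, 0.90, 0.68 and -0.66, so the eIF4 medians of the 2 pos libraries had opposite signs. Scaling by library size alone moved the median of all genes from -0.05 to -0.41, and the medians of eIF2, eIF2B, eIF3 and eIF4 with it, to -0.54, 0.27, 0.17 and -0.58. All 5 eIF2B genes and 9 of 12 eIF3 genes were above the neg mean in both pos libraries, a count not made over all tested genes. The log2 fold change was above 0 for 100% of the eIF2B and 75% of the tested eIF3 genes, against 48% of all tested genes. The deviation was larger in pos replicate 3 than in pos replicate 1 for 37 of the 44 tested members, which was also not counted over all tested genes.

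**Figure D1:**
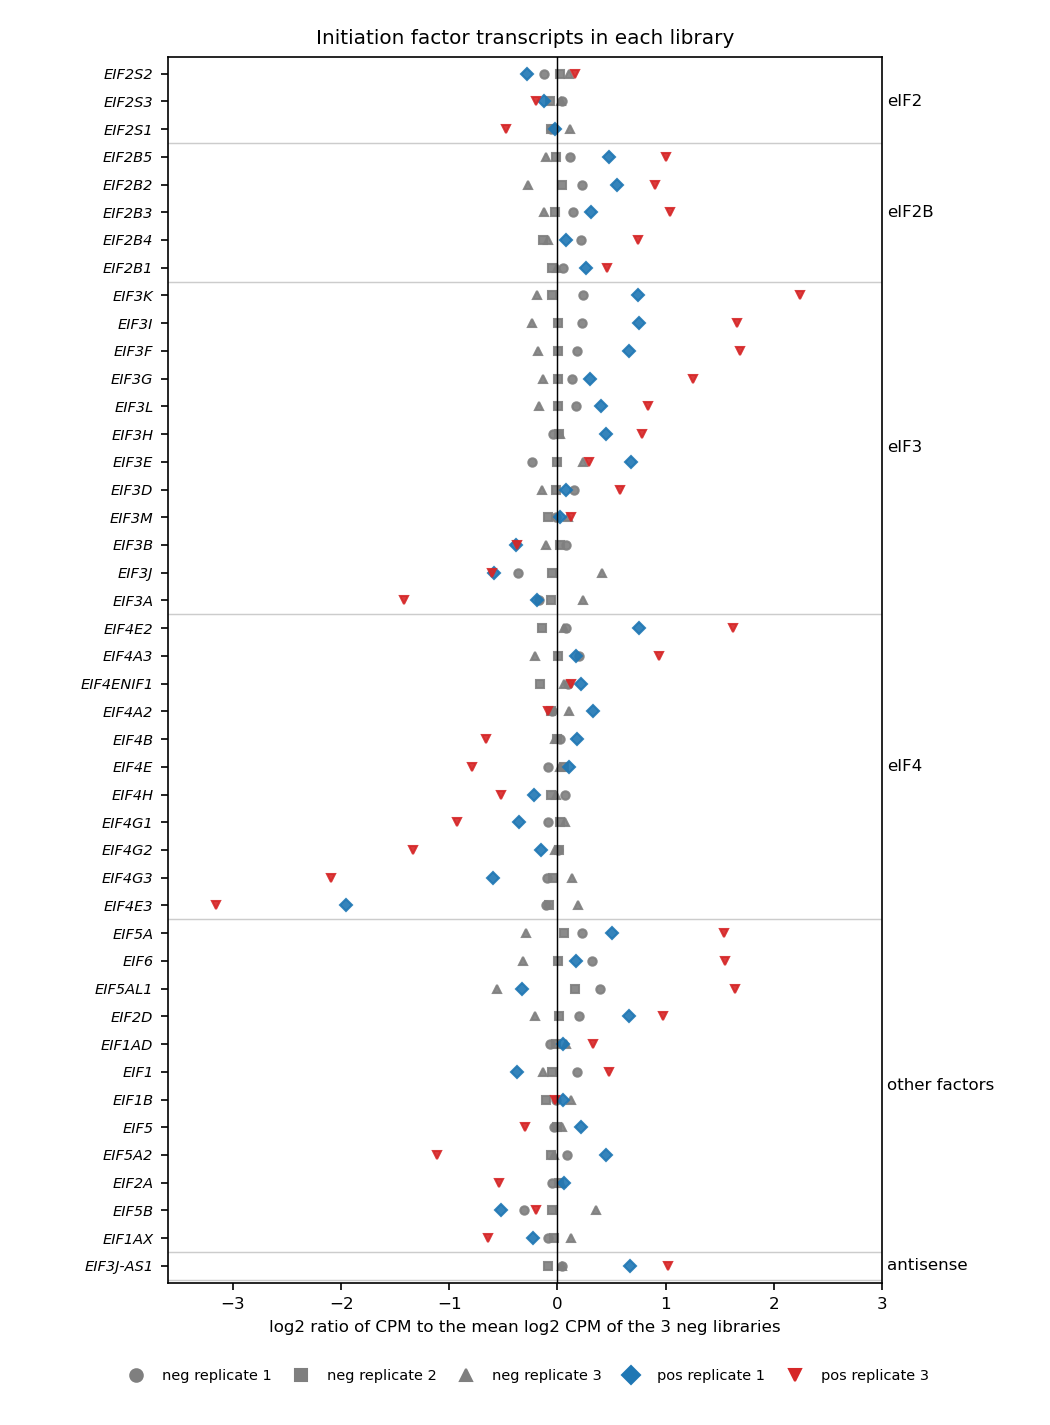
Each of the 44 tested members is a line, placed by factor group and sorted by fold change within it, and each marker is 1 library. The x axis is the log2 ratio of normalised CPM to the mean log2 CPM of the 3 neg libraries. The 3 neg markers lie apart for some members, such as EIF3J at 150 to 257 CPM. Pos replicate 3 lies farther out than pos replicate 1 for 37 members, and EIF4E3 lies lowest in both pos libraries.

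The subunits of eIF2, the carrier of the initiator tRNA, did not pass the test. EIF2S1 encodes the alpha subunit, whose phosphorylation halts most initiation under stress. It had 170, 170 and 191 CPM in neg and 174 and 128 CPM in pos. Only pos replicate 3 lay below the neg range, and the log2 fold change was -0.23 (SE 0.21, edgeR adjusted p = 0.458). EIF2S2 (the beta subunit) had 366, 405 and 429 CPM in neg and 328 and 446 CPM in pos, on either side of the neg range (-0.05, SE 0.22). EIF2S3 (the GTP-binding gamma subunit, with a TOP-like start) had 1062, 987 and 1055 CPM in neg and 948 and 899 CPM in pos. Both pos values were below neg, by a log2 fold change of -0.16 (SE 0.19, edgeR adjusted p = 0.556), a difference that did not pass. Removal of the length trend put EIF2S1, EIF2S2 and EIF2S3 at 0.05, -0.20 and -0.02. Per kilobase of annotated canonical transcript the order in neg was EIF2S3 at 299 ± 12.0, EIF2S2 at 157 ± 12.4 and EIF2S1 at 42.6 ± 2.95 CPM per kb (SD, n = 3), with no overlap between neighbours, and in pos it was the same, at 267 ± 9.98, 151 ± 32.6 and 36.3 ± 7.94 CPM per kb (SD, n = 2).

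The 5 genes of eIF2B, the exchange factor that eIF2 phosphorylation blocks, all had log2 fold changes above 0, from 0.36 for EIF2B1 to 0.76 for EIF2B5, and none passed. EIF2B5 encodes the catalytic epsilon subunit. It had 38.7, 35.3 and 33.0 CPM in neg and 49.7 and 71.2 CPM in pos, so the groups did not overlap (SE 0.23, edgeR adjusted p = 0.0793, DESeq2 adjusted p = 0.0425). EIF2B2, the beta subunit, was at 0.72 and EIF2B3, the gamma subunit, at 0.71. Both had pos libraries above neg. EIF2B4, the delta subunit, was at 0.44 and its groups overlapped. Removal of the length trend put EIF2B2 at 1.09 (edgeR adjusted p = 0.0498), EIF2B5 at 0.615, EIF2B3 at 0.29, EIF2B1 at 0.16 and EIF2B4 at -0.10. The annotated canonical transcript of EIF2B2 has 4304 nt, of which 1053 nt are coding. When median lengths of annotated coding transcripts replaced canonical lengths, EIF2B2 was at 1.25 and did not pass (edgeR adjusted p = 0.0539).

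The eIF3 genes spread to both sides of neg. None of the 12 tested subunit genes passed in edgeR, against 9.20% of all tested genes. An unadjusted p under 0.05 was found for 6, or 50%, against 34.6%, and these 6 were all higher in pos. EIF3K and EIF3A, the highest and lowest of the 12, both belong to the octamer of PCI and MPN domain subunits (a, c, e, f, h, k, l and m) that forms the core of the complex. EIF3K, its smallest subunit, had 162, 134 and 122 CPM in neg and 232 and 652 CPM in pos. Both pos libraries were above neg, and the second of them was far above the first. It stood at a log2 fold change of 1.67 (SE 0.43, edgeR adjusted p = 0.0609, DESeq2 adjusted p = 0.00207), it was 0.71 without pos replicate 3, and 0.43 (edgeR adjusted p = 0.117) with the length trend removed. EIF3A, the large scaffold subunit, had 429, 464 and 568 CPM in neg and 423 and 181 CPM in pos. Pos replicate 1 lay just under the lowest neg library and pos replicate 3 well below it (log2 fold change -0.69, SE 0.39, edgeR adjusted p = 0.246). The value for EIF3A was -0.14 with the length trend removed.

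EIF3F and EIF3I, named after their values were seen, were next to EIF3K. EIF3F encodes an MPN subunit of the octamer. It had 272, 241 and 211 CPM in neg and 379 and 774 CPM in pos, with all pos above all neg (log2 fold change 1.26, SE 0.33, edgeR adjusted p = 0.0628). With the length trend removed it was at 2.13 (edgeR adjusted p = 0.0404). That value rests on an annotated canonical transcript of 6920 nt, of which 1071 nt are coding, and the length of the EIF3F transcripts in these cells is not known. EIF3I encodes a WD-repeat subunit that sits beside EIF3B. It had 407, 348 and 296 CPM in neg and 587 and 1100 CPM in pos, also without overlap (1.27, SE 0.32, edgeR adjusted p = 0.0569). EIF3I was at 0.58 (edgeR adjusted p = 0.0416) with the trend removed. EIF3H, the other MPN subunit, was at 0.62 (SE 0.20, edgeR adjusted p = 0.0866), and at 0.91 (edgeR adjusted p = 0.0377) with the trend removed. That value too rests on the annotated canonical transcript, of 3961 nt with 1056 nt coding. On median coding transcript lengths EIF3H was at 0.79 (edgeR adjusted p = 0.0436). EIF3F, EIF3I and EIF3H were the eIF3 genes called with the trend removed on canonical lengths.

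EIF3B, the scaffold for EIF3I and EIF3G, was at the lower end. It had 469, 452 and 413 CPM in neg and 340 and 344 CPM in pos, so both pos libraries lay below neg by nearly the same amount (log2 fold change -0.38, SE 0.18, edgeR adjusted p = 0.192). EIF3J, a loosely bound subunit that helps in start site recognition, was also lower in both, with 129 and 127 CPM in pos against 150 to 257 CPM in neg (-0.63, SE 0.27, edgeR adjusted p = 0.159). Its antisense neighbour EIF3J-AS1 was at 0.85 (SE 0.21, edgeR adjusted p = 0.0545), with 26.9 and 34.4 CPM in pos and 15.97 to 17.4 CPM in neg, and at 0.03 with the length trend removed. Its annotated span ends before EIF3J begins, and 8.17% of its exon bases overlap CTDSPL2 on the opposite strand. With no strand setting given, reads of that overlap cannot be told apart. The other eIF3 genes were EIF3G (0.85), EIF3L (0.63), EIF3E (0.48), EIF3D (0.34) and EIF3M (0.07), with edgeR adjusted p from 0.112 to 0.789. Without the length trend they were at -0.05, 0.53, 0.17, -0.07 and 0.57 in the same order, so EIF3G and EIF3D changed sign. EIF3B and EIF3J were then at -0.34 and -0.80. EIF3D and EIF3M were the only 2 of the 12 whose groups overlapped, so 10 of 12, or 83.3%, did not, against 56.0% of all tested genes.

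**Figure D2:**
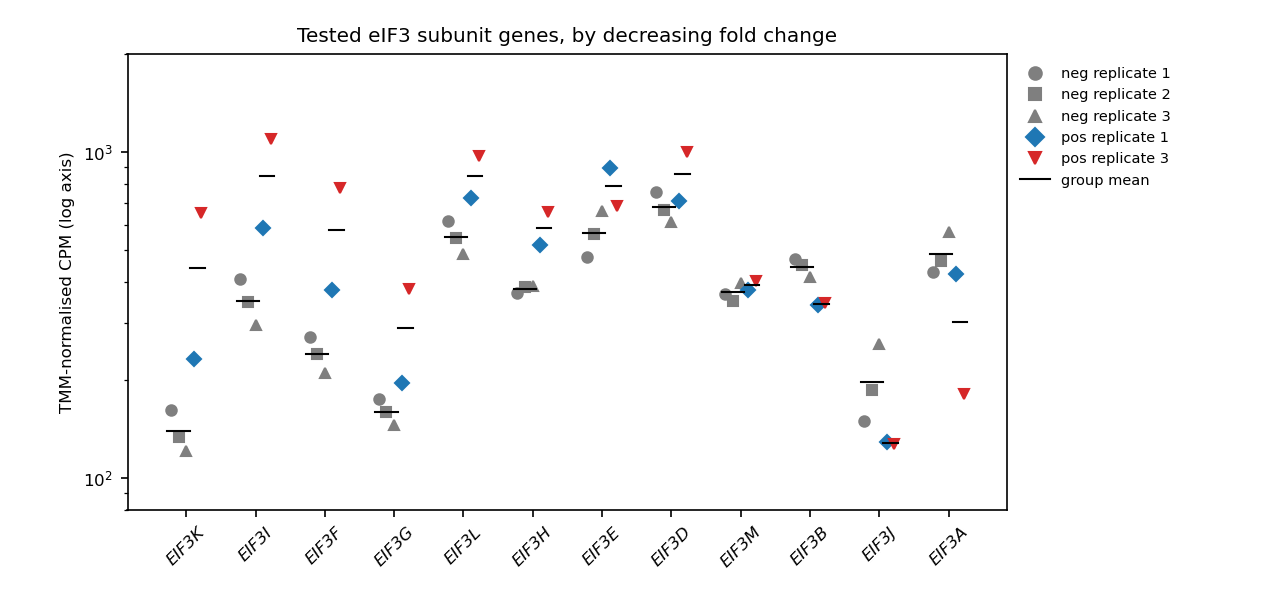
Normalised CPM (log axis) of the 12 tested eIF3 subunit genes, with 1 marker per library and a bar at each group mean. From EIF3K to EIF3E the pos libraries lie above neg, for EIF3D and EIF3M they overlap neg, and for EIF3B, EIF3J and EIF3A they lie below.

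In eIF4 the genes of the cap-binding proteins differed in direction. EIF4E3 had 75, 85 and 80 reads in neg and 18 and 6 in pos, which is 5.24, 5.34 and 6.43 CPM against 1.46 and 0.633 CPM. The lowest neg library had an exact Poisson 95% interval of 4.12 to 6.57 CPM and the higher pos library one of 0.863 to 2.30 CPM, so the intervals, which cover counting error only, did not meet. It fell 5.26-fold (log2 fold change -2.39, SE 0.42, edgeR adjusted p = 0.0382). The adjusted p was 0.0389 in limma-voom and 0.000245 in DESeq2. Against the mean of neg, the 2 pos libraries stood at -1.85 and -2.88 on the log2 scale. With the length trend removed the log2 fold change was -1.66 (SE 0.30, edgeR adjusted p = 0.0224). Its annotated canonical transcript, at 9978 nt, is the longest of the members, and the gene lies on chromosome 3, minus strand, between positions 71675414 and 71754773 (GENCODE 44, GRCh38). The call was lost without any 1 neg library: leaving out replicate 1, 2 or 3 gave log2 fold changes of -2.46, -2.45 and -2.30 with edgeR adjusted p of 0.178, 0.217 and 0.212.

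EIF4E2, named after its values were seen, encodes a cap-binding relative that represses rather than promotes initiation. It had 78.0, 66.8 and 77.2 CPM in neg and 125 and 228 CPM in pos, and all pos libraries lay above neg. The log2 fold change of 1.25 (SE 0.29) missed the threshold in edgeR (adjusted p = 0.0504) and passed in DESeq2 (adjusted p = 0.00300). With the length trend removed it was 0.26 (edgeR adjusted p = 0.289) for a canonical length of 967 nt, and 1.32 (edgeR adjusted p = 0.0368) when the median length of its annotated coding transcripts, 2693 nt, was used instead. EIF4E, the main cap-binding protein, had 17.2, 19.0 and 18.5 CPM in neg and 19.6 and 10.5 CPM in pos, so pos replicate 1 was above neg and pos replicate 3 below (-0.27, SE 0.30, edgeR adjusted p = 0.538). Its level in neg was low for eIF4, at 7.52 ± 0.390 CPM per kb of canonical transcript (SD, n = 3) against 76.5 ± 6.48 for EIF4E2 and 0.569 ± 0.0659 for EIF4E3. Of all 50-base stretches of the EIF4E canonical transcript, 20.9% also occur in transcripts of other genes, mainly the pseudogene EIF4EP2, where reads may not be assigned to a single gene.

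The scaffold genes were lower in pos, with no overlap between groups for all 3 (56.0% of all tested genes did not overlap), and none passed. EIF4G1, the main scaffold that joins cap-binding protein, helicase and eIF3, had 329, 357 and 367 CPM in neg and 274 and 184 CPM in pos (-0.62, SE 0.23, edgeR adjusted p = 0.127). EIF4G2 encodes a scaffold that lacks the eIF4E site. It had 824, 830 and 808 CPM in neg and 739 and 325 CPM in pos (-0.62, SE 0.36, edgeR adjusted p = 0.261). EIF4G3 had 105, 110 and 124 CPM in neg and 74.2 and 26.4 CPM in pos (-1.16, SE 0.44, edgeR adjusted p = 0.125, DESeq2 adjusted p = 0.0352). In each of the 3, pos replicate 3 was the lower library. Their values without the length trend were -0.14, -0.46 and -0.67.

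Among the helicase and its helpers, EIF4A2, a helicase that unwinds the leader, had 676, 675 and 757 CPM in neg and 884 and 659 CPM in pos (0.13, SE 0.22). The helicase cofactor EIF4B had 1035, 1014 and 998 CPM in neg and 1152 and 642 CPM in pos (-0.18, SE 0.29). For both, pos replicate 1 was above neg and pos replicate 3 below. The related cofactor EIF4H was at 178, 162 and 168 CPM in neg and 145 and 118 CPM in pos, lower in both pos libraries (-0.36, SE 0.19, edgeR adjusted p = 0.225). EIF4A3, a component of the exon junction complex, was at 0.60 and the eIF4E transporter EIF4ENIF1 at 0.17, neither past the threshold. Without the length trend EIF4A2 was at -0.22, EIF4B at 0.02, EIF4H at -0.49, EIF4A3 at 0.43, EIF4ENIF1 at 0.35 and the cap-binding gene EIF4E at -0.43.

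**Figure D3:**
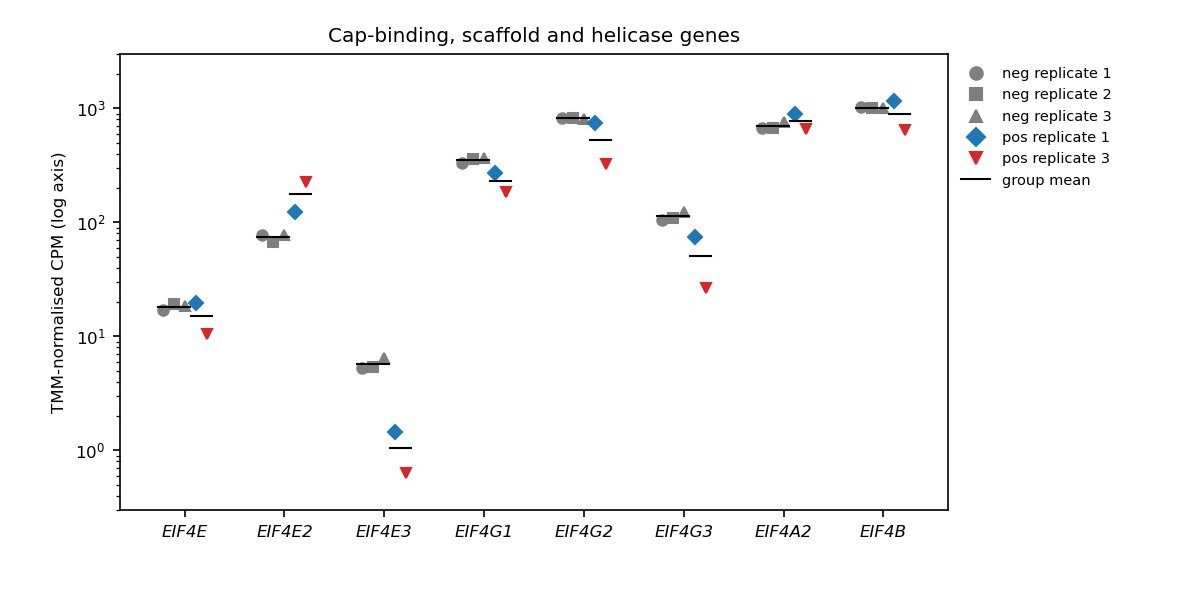
Normalised CPM (log axis) of the cap-binding, scaffold and helicase genes, with 1 marker per library and a bar at each group mean. EIF4E2 is higher and EIF4E3 and the 3 EIF4G genes are lower in both pos libraries, and EIF4E, EIF4A2 and EIF4B have 1 pos library on either side of neg.

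Ratios between paralogs within a library do not depend on how libraries are scaled. They keep each library's length trend where the 2 transcripts differ in length, and that trend was not removed here. By canonical transcript EIF4E has 2427 nt and EIF4E2 967 nt. With the trend removed on canonical lengths, the log2 fold changes of EIF4E and EIF4E2 were -0.43 and 0.26. On median coding transcript lengths they were -0.82 and 1.32. Of 6 pairs listed, 5 could be computed and EIF4A1 to EIF4A2 could not, for want of reads in EIF4A1. The log2 ratio of EIF4E to EIF4E2 was -2.17, -1.80 and -2.05 in neg and -2.66 and -4.41 in pos, lower in both pos libraries. The difference was -1.53 with an exact two-sided permutation p of 0.1, the smallest that 10 splits of 5 libraries can give (0.25 after Benjamini-Hochberg adjustment over 5 pairs). The log2 ratio of EIF4G1 to EIF4G3 was 1.65, 1.70 and 1.57 in neg and 1.88 and 2.80 in pos (difference 0.70, exact permutation p = 0.1, adjusted 0.25). Both differences depended on the pos library used. Without pos replicate 1 they were -2.41 for EIF4E to EIF4E2 and 1.16 for EIF4G1 to EIF4G3, and without pos replicate 3 they were -0.65 and 0.24. For EIF4G1 to EIF4G2, EIF1 to EIF1B and EIF5A to EIF5A2 the groups overlapped, with differences of 0.10, 0.04 and 1.35.

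The remaining factors act in start codon choice, subunit joining and after. EIF1, which keeps the scanning ribosome from stopping early, had 1287, 1098 and 1032 CPM in neg and 873 and 1574 CPM in pos, 1 library on either side of neg (0.10, SE 0.30). EIF5A is a hypusine-containing factor that also helps elongation. It had 916, 817 and 639 CPM in neg and 1106 and 2273 CPM in pos, all above neg (1.10, SE 0.35, edgeR adjusted p = 0.0914, DESeq2 adjusted p = 0.0208). EIF5A was at 0.30 with the length trend removed, and 38.7% of the 50-base stretches of its canonical transcript also occur in other genes, mainly EIF5AL1. EIF6, which keeps large subunits from joining too soon, had 249, 199 and 159 CPM in neg and 224 and 582 CPM in pos (0.99, SE 0.42, edgeR adjusted p = 0.155). Only pos replicate 3 was outside the neg range, and removal of the length trend put EIF6 at 0.02 (edgeR adjusted p = 0.940).

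EIF5B, the GTPase of subunit joining, had 185, 221 and 295 CPM in neg and 160 and 199 CPM in pos, with overlap (-0.38, SE 0.26). EIF2D, a tRNA-binding factor with a TOP-like start that was named after its values were seen, had 75.1, 66.2 and 56.8 CPM in neg and 104 and 129 CPM in pos, all above neg (0.82, SE 0.22, edgeR adjusted p = 0.0632). The alternative initiator tRNA-binding factor EIF2A was at -0.21, the GTPase activator EIF5 at -0.02, EIF1AX at -0.42, EIF1B at 0.01, EIF1AD at 0.20, EIF5A2 at -0.12 and EIF5AL1 at 0.89, none past the threshold. EIF5 had 268, 273 and 283 CPM in neg and 319 and 223 CPM in pos, 1 library on either side of neg. Its annotated canonical transcript has 5710 nt, of which 1293 nt are coding. EIF5 was at 0.51 (edgeR adjusted p = 0.0499) with the length trend removed. The same fit put EIF2D at 0.48, EIF5B at 0.26, EIF1 at -0.14, EIF2A at 0.01, EIF1AX at -0.09, EIF1B at -0.83, EIF1AD at 0.18, EIF5A2 at 0.27 and EIF5AL1 at 1.21, none past the threshold. On median coding transcript lengths EIF5 was at 0.45 and did not pass (edgeR adjusted p = 0.0745).

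Across the 43 tested coding members, log2 fold change was lower for longer transcripts (Spearman rho = -0.568, across genes that share libraries, given as a description). Over all tested genes with a length (n = 13185) rho was -0.580, and with each library's length trend removed it was 0.068 for the members. Long members were lower and short members higher, and EIF3F, at 6920 nt and 1.26, was far from the rest. Among the 12 eIF3 genes rho was -0.476.

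**Figure D4:**
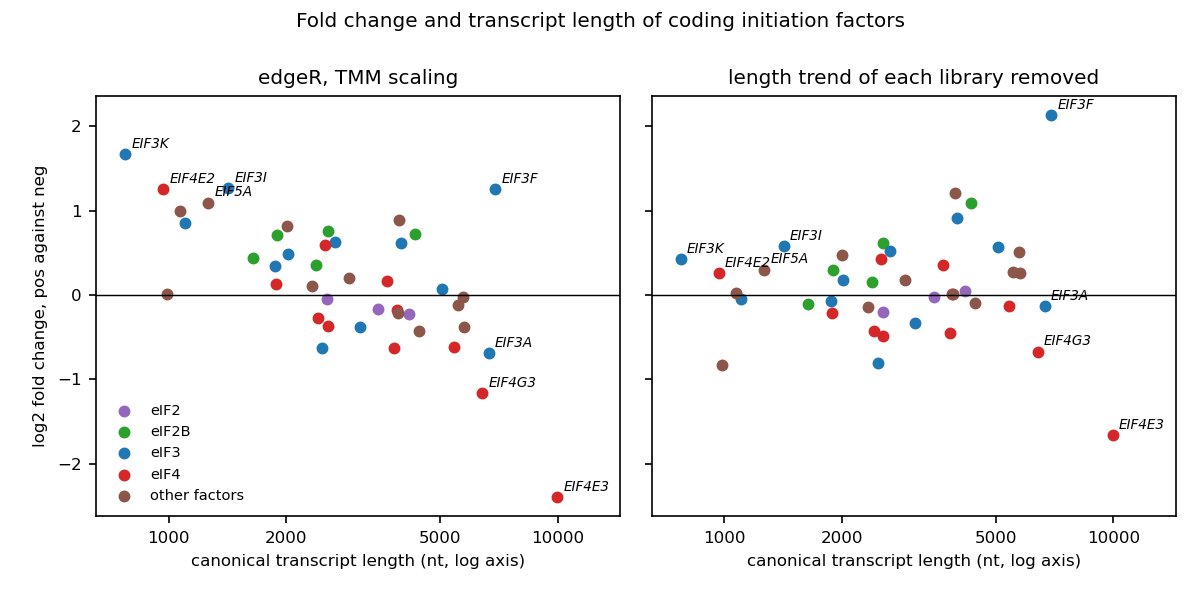
Log2 fold change (pos against neg) of the 43 tested coding members against canonical transcript length (nt, log axis), coloured by factor group. The panels show values before (left) and after (right) each library's length trend was removed. The downward slope on the left (rho -0.568) is flat on the right (rho 0.068), EIF4E3 is lowest in both panels, and EIF3F is highest on the right.

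A TOP-like start did not mark 1 direction. Of the 9 members with one, 6, or 66.7%, had a log2 fold change above 0, against 48% of all tested genes, and 3 were below. The share above 0 was 53.6% for the 28 tested members with a start window and no such start. It was 55.2% for all 724 tested genes with such a start. The 9 ran from -0.21 for EIF2A to 1.67 for EIF3K. Their median was 0.13, against 0.06 for the 28 tested members with a start window and none. EIF2S2, EIF3A, EIF3E, EIF3G, EIF3H, EIF3L and the antisense RNA EIF3J-AS1 were tested but had no start window, so they were not classed. None of the 9 passed in edgeR, against 9.20% of all tested genes. An unadjusted p under 0.05 was found for 3, or 33.3%, against 34.6% (EIF3K, EIF3F and EIF2D). Over all tested genes the medians were 0.09 for 724 with such a start and -0.06 for 9246 without.

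Members that could not be tested had at most 6 reads in any library. EIF4A1, the main cap-complex helicase, had 0 reads in all 5 libraries, EIF3CL had 0, and EIF3C, a core eIF3 subunit, had 1 read in neg replicate 3 alone. For EIF4A1, 100% of the 50-base stretches of the canonical transcript also occur in transcripts of other genes in GENCODE 44, and the table lists the readthrough gene SENP3-EIF4A1, whose annotated span covers all of EIF4A1, with 1 read in neg replicate 1 and 0 elsewhere. SENP3, upstream of it, had 202 to 475 reads. For EIF3C, 98.8% of such stretches occur in EIF3CL. The part of shared sequence in these zeros was not tested, and they give no level for EIF4A1 or EIF3C. The other 5 untested members were EIF4E1B, EIF1AY, EIF1AX-AS1, EIF1B-AS1 and EIF3IP1.

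Regulators of initiation were counted from a fixed list of 31 genes, 30 of them tested. One rose and none fell in edgeR, or 3.33% called, against 9.20% of all tested genes. It was PYM1, listed under its older symbol WIBG, which links newly exported mRNAs to the small ribosomal subunit. It had 29.8, 28.2 and 22.4 CPM in neg and 51.1 and 88.6 CPM in pos (1.38, SE 0.29, edgeR adjusted p = 0.0449). With the length trend removed PYM1 was at 0.58 (edgeR adjusted p = 0.0467). On median coding transcript lengths it was at 0.64 and did not pass (edgeR adjusted p = 0.0511). The list's median log2 fold change was -0.24, and 22 of 30 were below 0, as were 7074 of all 13604 tested genes. The eIF4E kinase MKNK2 was at -0.74 (SE 0.18, edgeR adjusted p = 0.0535), with 211 and 219 CPM in pos against 344 to 374 CPM in neg. MKNK2 passed in DESeq2 (adjusted p = 0.0135) and in limma-voom (adjusted p = 0.04996). On median coding transcript lengths it was at -1.28 and passed (edgeR adjusted p = 0.0200). PPP1R15A, the stress-induced subunit that directs dephosphorylation of eIF2, was at -0.65 (SE 0.25), and at -0.89 (edgeR adjusted p = 0.0283) with the length trend removed. On median coding transcript lengths PPP1R15A was at -0.73 and did not pass (edgeR adjusted p = 0.0697). The eIF2 kinase gene EIF2AK3 had 19.99 and 2.42 CPM in pos against 26.4 to 30.1 CPM in neg (-1.31, SE 0.76, edgeR adjusted p = 0.256). The eIF4E-binding protein gene EIF4EBP1 had 117 and 404 CPM in pos against 112 to 171 CPM in neg (0.88, SE 0.50). Removal of the length trend put MKNK2 at -0.51 (edgeR adjusted p = 0.0729), EIF2AK3 at -1.09 and EIF4EBP1 at -0.35, so EIF4EBP1 changed sign.

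Of 14 elongation and termination genes, 13 were tested, 1 rose and none fell in edgeR, or 7.69% called, against 9.20% of all tested genes. EEF1B2, the exchange factor for the tRNA carrier eEF1A, had 677, 546 and 513 CPM in neg and 1427 and 2647 CPM in pos, a 3.52-fold rise (log2 fold change 1.82, SE 0.32, edgeR adjusted p = 0.0382; 0.71 and adjusted p = 0.0221 with the length trend removed). The tRNA carrier EEF1A1 was at 0.84 (SE 0.25, edgeR adjusted p = 0.0808), and passed with the length trend removed (1.01, edgeR adjusted p = 0.0181). The list's median was 0.05.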

How the data were processed

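The authors deposited 1 table of raw read counts per gene symbol for 5 libraries, with 25435 rows. Of these, 92 spike-in rows held 0 reads and were left out, and the 5 columns were matched to libraries by title. Library preparation was for stranded mRNA, per the labels' protocols. Reads were aligned with STAR, per the labels' protocols, and the submitters' processing notes give STAR 2.5.2b, CASAVA 1.8.2 and DESeq2 1.24.0. The build is hg19 in those notes and GRCh38 in the protocols. Which program counted the reads, and with what strand setting, is not given in the sources used.

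The principal model for these counts was edgeR 4.0.16 under R 4.3.3 (filterByExpr, minimum count 10 and minimum total 15; TMM; glmQLFit and glmQLFTest, two-sided, Benjamini-Hochberg over 13604 genes, threshold 0.05). Each SE was taken as the size of the log2 fold change over the root of F. CPM is TMM-normalised, and 3 reads equalled 0.189 to 0.316 CPM. Alternatives were DESeq2 1.42.0, limma-voom (limma 3.58.1), other scalings and filters, a replicate block, omission of single libraries, and removal of each library's trend of log2 CPM (prior count 2) on canonical transcript length (GENCODE 44; lowess, span 0.3) as an offset. A fit with median coding transcript lengths was chosen after seeing the data. The edgeR step was tested on simulated data with known shifts. A true shift of 4-fold was found in 78 of 100 cases, but one of 2-fold in only 4 of 100. Calls were also made for 6 genes without a true shift, and 0 calls had the wrong direction. Most shifts of 2-fold were thus missed, so a member that did not pass is not shown to be unchanged. No pair of libraries agreed within sampling noise (chi-square per degree of freedom 6.02 or more).

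Members and lists were chosen with earlier results of these data known. Library values are given for every member called in the principal model, a fixed list and the highest and lowest eIF3 gene. Others have them where the text says so or by range. Start windows are from RefSeq. Shared sequence was counted as exact 50-base matches between GENCODE 44 transcripts. The sum over one marker list is not reported here.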

Additional observations from a re-analysis of the deposited data

How the results depend on the processing

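The number of members past the threshold was 1 (0 higher, 1 lower). It was the same in limma-voom, with DESeq2 size factors, upper quartile scaling or library size only, and with a minimum of 5 CPM in 2 libraries. Those settings called 4.45% to 9.32% of all genes. The number was 11 in DESeq2 (9 higher, 2 lower), or 25% against 23.2%, with the antisense RNA EIF3J-AS1 among the higher. It was 2 without a filter (1 higher), or 4.08% against 7.23% of all genes. It was 6 with the length trend removed (5 higher), or 13.6% against 13.9%. With median coding transcript lengths, an alternative chosen after seeing the data, it was 5 (4 higher), or 11.4% against 11.4% of all genes. At a threshold of 0.01 it was 0 (0 lower), and at 0.10 it was 11 (10 higher), without a count over all genes at these thresholds. Leaving out 1 library gave 0 to 32 (0 to 20 higher, 0 to 12 lower). Removal of the length trend gave 23 (15 higher, 8 lower) without pos replicate 1 as well, or 52.3% against 51.6% of all genes, and 13 (9 higher, 4 lower) without pos replicate 3, or 29.5% against 35.7%. Fits with 1 pos library assume that it varies like neg. The cause of these changes was not tested.

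With the replicate block 0 members passed (0 lower), against 0.64% of all genes. In that fit 3 members had an unadjusted p under 0.05, and EIF4E3 was at -2.52 (edgeR adjusted p = 0.154). The deviations of same-numbered libraries from their group means correlated at -0.443 for number 1 and -0.448 for number 3. With 2 pos libraries these values are not independent of each other, and no label ties a number to a shared culture or day, so the numbers were not taken to pair the libraries.

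The median log2 fold changes moved as follows. Under library size only they were -0.54 for eIF2, 0.27 for eIF2B, 0.17 for eIF3 and -0.58 for eIF4. Removal of the length trend gave -0.019, 0.29 and 0.30, and median coding lengths gave -0.013 for eIF2 and 0.23 for eIF3. Leaving out 1 library gave 0.28 to 0.94 for eIF2B, 0.32 to 0.72 for eIF3 and -0.61 to 0.074 for eIF4. Removal of the trend without pos replicate 1 gave 0.048 for eIF2, 0.44 for eIF2B, 0.34 for eIF3 and -0.70 for eIF4, and without pos replicate 3 it gave 0.17 for eIF2B and 0.19 for eIF3.

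Some single genes changed sign. Under library size only EIF4A2 was at -0.21 and EIF1 at -0.35. Removal of the length trend put EIF2S1 at 0.049, EIF4A2 at -0.22, EIF4B at 0.018, EIF5B at 0.26 and EIF1 at -0.14, and median coding lengths put EIF2S3 at 0.12, EIF4A2 at -0.091, EIF5B at 0.34 and EIF1 at -0.35. Removal of the trend without pos replicate 1 put EIF2S1 at 0.048, EIF2S3 at 0.057, EIF4A2 at -0.70 and EIF5B at 0.71. Removal of the trend without pos replicate 3 put EIF2S1 at 0.059, EIF4E at 0.015, EIF4B at 0.24, EIF6 at -0.25, EIF1 at -0.48 and EIF3A at 0.025. Leaving out 1 library gave -0.32 to 0.20 for EIF2S2, -0.74 to 0.074 for EIF4E, -0.046 to 0.30 for EIF4A2, -0.61 to 0.15 for EIF4B and -0.41 to 0.52 for EIF1. The paralog difference then ran from -2.41 to -0.65 for EIF4E to EIF4E2, from 0.24 to 1.16 for EIF4G1 to EIF4G3, from 0.055 to 2.635 for EIF5A to EIF5A2, from -0.21 to 0.41 for EIF4G1 to EIF4G2 and from -0.43 to 0.50 for EIF1 to EIF1B.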

Other observations

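Shared sequence limits what counts per gene can say of several members beyond EIF4A1 and EIF3C. Of the 48 coding members, 10 share at least 20% of the 50-base stretches of their canonical transcript with transcripts of other genes in GENCODE 44, and 18 share none. Besides EIF4A1, EIF3C and EIF3CL these were EIF3L (56.6%, mainly an overlapping long non-coding RNA), EIF5A (38.7%), EIF4B (33.0%, mainly the pseudogene EIF4BP6), EIF2S2 (23.5%), EIF6 (23.0%), EIF4E (20.9%) and EIF2S3 (20.1%). Whether these members lost reads was not tested.

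The 52 members took 1.45%, 1.44% and 1.47% of all reads in neg replicates 1, 2 and 3, 1.43% in pos replicate 1 and 1.19% in pos replicate 3.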
